A study of Mus musculus with 30 samples.

Results

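The basal and myoepithelial genes described here are 10 genes: Krt5, Krt14, Krt17 and Trp63, which mark the basal layer, and Acta2, Myh11, Mylk, Cnn1, Oxtr and Tagln, which belong to the contractile machinery of myoepithelial and smooth muscle cells. They were chosen by name, and each was represented by its transcript with the highest mean level. They are 10 of 20841 named genes, and all 10 were among the 13610 tested genes, those that averaged 1 RPKM or more (reads per kilobase of transcript, scaled to the size of the library). The series holds poly-A selected RNA of 30 mouse mammary tumours, 1 per animal, in 1 group. The animals were ((MOLF x PyMT) x FVB) backcross mice: mice of the wild-derived MOLF strain were crossed with mice that carry the polyoma middle T antigen (PyMT), a viral oncogene, and the offspring were crossed to FVB. The labels give no untreated tissue, no genotype per animal, no age and no promoter for PyMT, and a tumour piece holds all the cell types that were in it. With a single group, tumours were compared along gene levels and marker scores (n = 30, or fewer where stated), and each tumour is called by its animal number.

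The mammary duct has an inner luminal layer and an outer basal layer. Basal cells make the keratin pair Krt5 and Krt14 and depend on the transcription factor p63 (Trp63). Their mature form, the myoepithelial cell, also builds a smooth muscle type of actin and myosin apparatus and contracts when oxytocin binds its receptor during milk ejection. Smooth muscle cells and pericytes of vessel walls and activated fibroblasts make Acta2 and Tagln too, and skin makes Krt5, Krt14 and Trp63, so in a tumour piece these genes need not come from 1 cell type.

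Many genes of the contractile apparatus are controlled by serum response factor (SRF), which binds the CArG box, a run of 2 C, 6 bases that are A or T, and 2 G. The table of RefSeq promoter windows (GRCm38.p6, 250 bases before to 50 bases after the start) held 6 of the 10 members: Krt5, Krt14, Acta2, Mylk, Cnn1 and Oxtr. The Krt14 window lies inside the annotated gene and was not read as its promoter. The windows of Acta2 and Cnn1 are shown because these genes rose and fell together across the tumours, as given below, and that of Krt5 because it is the basal counterpart. Capitals mark CArG boxes with at most 1 inner base that is not A or T, and all else is in lower case. The windows lie at chr19:34255324-34255623 (minus strand) for Acta2, chr9:22099003-22099302 (plus strand) for Cnn1 and chr15:101712856-101713155 (minus strand) for Krt5.
Acta2: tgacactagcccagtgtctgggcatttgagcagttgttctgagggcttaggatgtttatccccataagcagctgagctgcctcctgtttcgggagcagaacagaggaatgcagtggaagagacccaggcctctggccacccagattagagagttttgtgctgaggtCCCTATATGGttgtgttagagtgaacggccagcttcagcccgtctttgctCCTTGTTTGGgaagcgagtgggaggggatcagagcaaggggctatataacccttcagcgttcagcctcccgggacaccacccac
Cnn1: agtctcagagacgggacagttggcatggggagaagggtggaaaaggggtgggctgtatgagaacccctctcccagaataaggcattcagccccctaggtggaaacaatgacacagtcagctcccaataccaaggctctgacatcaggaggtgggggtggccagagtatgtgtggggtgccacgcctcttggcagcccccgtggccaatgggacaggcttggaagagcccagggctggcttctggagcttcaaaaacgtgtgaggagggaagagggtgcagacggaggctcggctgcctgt
Krt5: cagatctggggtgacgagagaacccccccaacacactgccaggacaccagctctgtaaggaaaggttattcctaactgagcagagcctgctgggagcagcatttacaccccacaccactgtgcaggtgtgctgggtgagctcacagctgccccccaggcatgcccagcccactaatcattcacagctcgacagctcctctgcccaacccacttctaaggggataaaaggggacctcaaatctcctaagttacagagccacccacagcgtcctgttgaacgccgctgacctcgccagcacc
Acta2 held 2 such boxes, CCCTATATGG beginning 84 bases before the start and CCTTGTTTGG beginning 34 bases before it, each with 1 inner base that is not A or T. The windows of Krt5, Mylk, Cnn1 and Oxtr held none, and no window held a box with all 6 inner bases A or T. Of 32851 RefSeq windows of the same length, 9.98% held a box with at most 1 such base and 1.63% held one with none. The search pattern, though not each box, reads the same on both strands. These matches describe letters only, and boxes outside the windows were not searched.

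Poly-A libraries of 117.0 to 195.9 M reads (14 deep libraries) and 42.6 to 61.9 M reads (16 shallow libraries) lay behind the values, as recovered from the steps between low RPKM values. Correlations between tumours over the tested genes ranged from 0.866 to 0.981 (median 0.953), and no libraries were identical. The luminal epithelial markers Krt8 (mean 515 ± 112 RPKM, SD), Krt18 (521 ± 112 RPKM) and Epcam (442 ± 74.7 RPKM) were abundant in every tumour, as the mammary label calls for. The basal keratins had lower mean levels than these. Among the 12 listed luminal genes, Foxa1 (0.575 RPKM), Esr1 (1.92 RPKM) and Prlr (10.5 RPKM) had low mean levels. Summed levels of markers of other cell types ranged from 451 to 7710 RPKM for stroma matrix (18 genes), 46.4 to 409 RPKM for mural cells of vessels (11 genes), 40.1 to 175 RPKM for endothelium (12 genes) and 22.9 to 201 RPKM for keratinised epithelium (9 genes). No gene of these lists was at 0 in all tumours. The highest mural sum was that of animal 3273, where Des alone had 307 RPKM. Skeletal muscle genes also summed highest in that tumour, at 18092 RPKM.

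All 10 genes were detected in every tumour and varied more than most genes. Over the tested genes the median SD of log2(RPKM + 1) was 0.27. The members had SDs between 0.49 for Mylk and 1.0 for Myh11, and between 1.74% (Myh11) and 12.1% (Mylk) of tested genes had a larger one. In bulk tissue, a lower level from fewer cells of a type cannot be told apart from a lower level from less RNA per cell.

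Among the basal genes, Krt14, the acidic partner of the basal keratin filament, had the highest mean level, 70.9 ± 35.5 RPKM (SD). It was lowest at 23.6 RPKM in animal 4378, had a median of 57.4 RPKM, and was highest at 166 RPKM in animal 4030, followed by 147 RPKM in animal 4488 and 142 RPKM in animal 4038. The upper quartile was 80.3 RPKM. Krt5, the basic partner, averaged 65.9 ± 32.3 RPKM, with 14.2 RPKM in animal 3654, a median of 60.5 RPKM and 137 RPKM in animal 4488. Animals 3871 (132 RPKM) and 4459 (124 RPKM) came next, followed by animal 4038 (123 RPKM, rank 4). Animals 4488 and 4038 thus stood high in both keratins. Animal 4030, highest in Krt14, was rank 20 in Krt5. Krt17, a keratin of basal and stressed epithelium, averaged 28.5 ± 16.8 RPKM. It ranged from 8.11 RPKM in animal 4378 through a median of 24.5 RPKM to 68.7 RPKM in animal 4030. The tumour of animal 4378 lay among the 3 lowest for all 4 basal genes, and the milk genes summed highest there (53652 RPKM against a median of 6032 RPKM).

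Trp63, the basal transcription factor, averaged 9.49 ± 3.90 RPKM, with 1.33 RPKM in animal 3654, a median of 9.76 RPKM and 18.4 RPKM in animal 4488. Animal 3654 thus had the lowest Krt5 and the lowest Trp63, and animal 4488 the highest of both. Trp63 had 8 transcript rows, which share exons and therefore reads. Of these, 5 begin at the downstream start and 3 at the upstream start, and 3 end at the nearer and 5 at the farther 3′ end of the gene. Rows with the upstream start lay below rows with the downstream start and the same end in 30 of 30 tumours, averaging 6.45 and 9.49 RPKM for the nearer end and 7.56 and 8.86 RPKM for the farther end. The downstream start gives the short form of p63, which lacks the first transactivation domain and is the main form of basal epithelium. The row used here has the downstream start and the nearer end. Its r with each downstream-start row of the farther end was 0.92. All ranks, slopes and correlations of Trp63 use this row and were not repeated with the farther-end rows.

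In the tumour of animal 4150 the level of Trp63 depended on the row. Rows with the downstream start and the nearer end averaged 2.35 RPKM there, and those with the farther end 6.25 RPKM, a log2 ratio of -1.41. In the other 29 tumours this ratio lay between -0.23 and 0.38. At the nearer end only animal 3654 was lower (1.31 RPKM), and at the farther end animals 3654 (1.32 RPKM), 4378 (2.67 RPKM) and 3427 (5.96 RPKM) were.

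**Figure D1:**
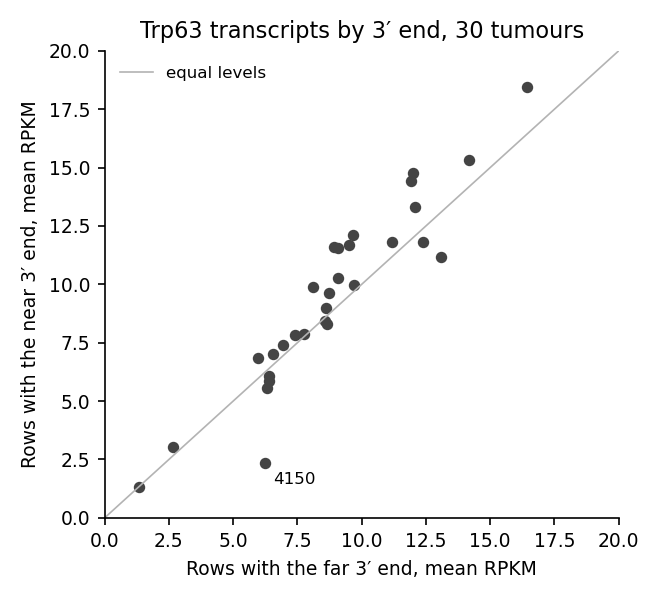
Mean RPKM of the downstream-start Trp63 rows with the nearer 3′ end (vertical axis) against those with the farther 3′ end (horizontal axis), 1 point per tumour (n = 30), with a line of equal levels. Most tumours lie near the line, and animal 4150 lies below it at 2.35 RPKM for the nearer and 6.25 RPKM for the farther end.

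Among the contractile genes, Acta2, the smooth muscle actin, averaged 45.7 ± 36.4 RPKM (SD). It was lowest at 11.8 RPKM in animal 4459, had a median of 36.0 RPKM and was highest at 178 RPKM in animal 3871, followed by 120 RPKM in animal 4511 and 115 RPKM in animal 4036. The 3 tumours stood far above the upper quartile of 55.5 RPKM. Tagln, an actin-binding protein of smooth muscle, averaged 22.97 ± 12.8 RPKM, from 9.89 RPKM in animal 4438 through a median of 20.01 RPKM to 78.4 RPKM in animal 3871, with animal 4030 next at 41.5 RPKM. Myh11, the smooth muscle myosin heavy chain, averaged 4.72 ± 5.33 RPKM, from 0.834 RPKM in animal 4150 through a median of 2.78 RPKM to 26.2 RPKM in animal 3871, which is 9.41 times the median. Animals 4036 (15.7 RPKM) and 4511 (10.8 RPKM) followed.

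Cnn1, a calponin that binds actin and restrains the myosin motor, averaged 3.69 ± 4.09 RPKM. Its lowest value was 0.666 RPKM in animal 4315, which corresponds to about 85.1 reads, the fewest behind any member in any tumour. Its median was 2.30 RPKM and its highest value 21.8 RPKM, again in animal 3871. Mylk, the kinase that switches on smooth muscle myosin, averaged 3.82 ± 2.14 RPKM, with 1.75 RPKM in animal 4042, a median of 3.27 RPKM and 12.3 RPKM in animal 3871. Oxtr, the oxytocin receptor, averaged 3.63 ± 2.05 RPKM, with 1.08 RPKM in animal 4438, a median of 3.18 RPKM and 9.08 RPKM in animal 3871. Animal 3871 therefore held the highest value of all 6 contractile genes. Animal 4036 was among the highest 3 for 5 of them and animal 4511 for 4.

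**Figure D2:**
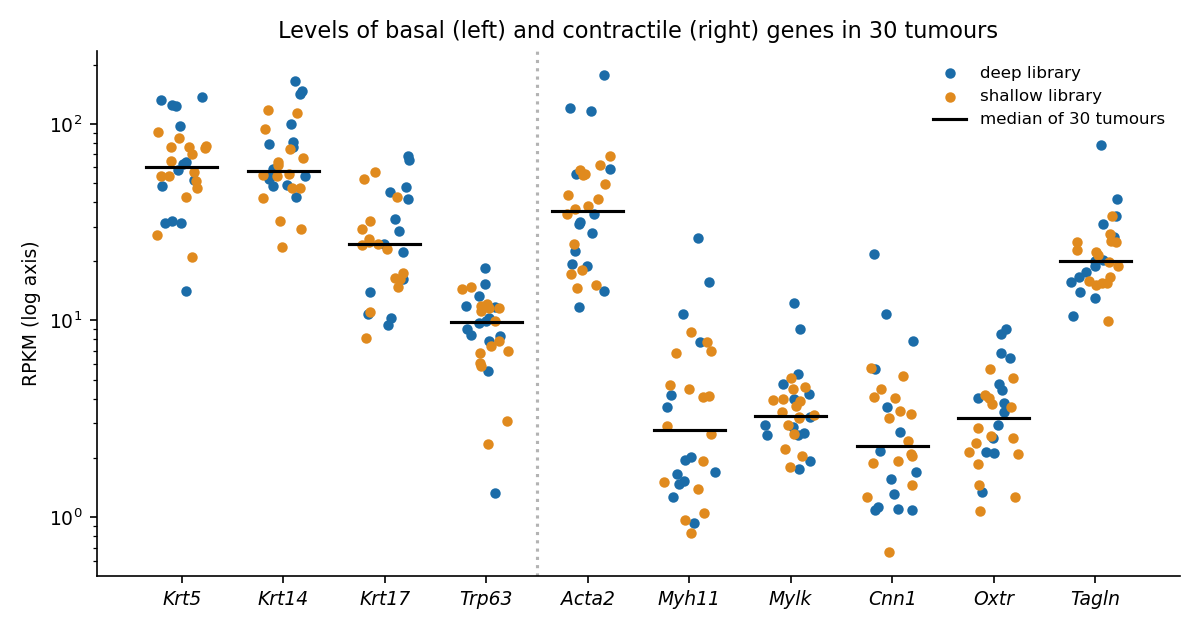
RPKM of each member in each tumour (log axis), with deep libraries in blue, shallow libraries in orange and the median of the 30 tumours as a bar. The highest point of each contractile gene is a deep library, that of animal 3871, with Acta2 at 178 RPKM, and the lowest point of Trp63 is at 1.33 RPKM.

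Ordered by mean RPKM, which is per length, the members ran Krt14, Krt5, Acta2, Krt17, Tagln, Trp63, Myh11, Mylk, Cnn1 and Oxtr. Neighbours in this order mostly did not differ beyond their spread. Only Tagln over Trp63 (mean log2 difference 1.19, SD 0.85, higher in 28 of 30 tumours) and Trp63 over Myh11 (1.14, SD 1.07, 24 of 30) had a mean difference above the SD of that difference. Krt14 exceeded Krt5 in 19 of 30 tumours (0.13, SD 0.67). Acta2 exceeded Krt17 in 18 of 30 (0.56, SD 1.24), so that whether the actin or the keratin was more abundant varied from tumour to tumour.

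The contractile genes rose and fell together across tumours, the basal genes did so in part, and no pair of 1 basal and 1 contractile gene passed the test. Each tested gene was regressed on each member in turn with limma (slopes in log2 units per SD of that member, with insert size as a covariate, two-sided, Benjamini-Hochberg over all tested genes, threshold 0.05). All 30 ordered pairs of contractile genes passed, with slopes from 0.32 to 0.96. In the same fits 6.56% of all tested genes passed for Acta2, 9.03% for Myh11, 10.5% for Mylk, 2.31% for Cnn1, 5.83% for Oxtr and 7.6% for Tagln, in either direction. With Acta2, Cnn1 rose by 0.74 ± 0.07 (SE, adjusted p = 1.41e-07), Myh11 by 0.85 ± 0.10 (adjusted p = 2.31e-06), Tagln by 0.49 ± 0.06 (adjusted p = 2.31e-06), Mylk by 0.38 ± 0.05 (adjusted p = 7.13e-05) and Oxtr by 0.38 ± 0.08 (adjusted p = 0.00844). The receptor Oxtr and the actin-binding Tagln were the loosest contractile pair (0.32 ± 0.09, adjusted p = 0.0378, for Tagln on Oxtr).

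Of the 12 ordered pairs of basal genes all had positive slopes (0.24 to 0.63) and 5 passed in limma, where 0.147% of all tested genes passed for Krt5, 0.287% for Krt14, 1.34% for Krt17 and 0.397% for Trp63. Krt17 rose with Krt14 (0.63 ± 0.11, adjusted p = 0.00722) and Krt14 with Krt17 (0.47 ± 0.08, adjusted p = 0.00398). Trp63 rose with Krt5 (0.45 ± 0.09, adjusted p = 0.0249) and Krt5 with Trp63 (0.53 ± 0.10, adjusted p = 0.0172). Krt5 also rose with Krt17 (0.46 ± 0.11, adjusted p = 0.0371), while the slope of Krt14 on its filament partner Krt5 was 0.36 ± 0.10 (adjusted p = 0.116). Reads of the keratins may have been shared. Of the 50-base windows of the Krt14 transcript 14.4% also occur in another gene (Krt16 or Krt17), and 11.4% occur in Krt16. The share was 8.52% for Krt5 (mostly Krt6a) and 3.99% for Krt17. Of the Krt17 windows 3.66% occur in Krt14, so shared reads may have affected the pair Krt14 and Krt17. For the contractile genes the share of windows that occur in another gene was at most 0.422%, and it was 0 for Trp63.

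For pairs of 1 basal and 1 contractile gene, 0 of 48 ordered pairs passed in limma. In the same fits 0.147% (Krt5) to 1.34% (Krt17) of all tested genes passed for the basal members. For the contractile members 2.31% (Cnn1) to 10.5% (Mylk) passed. The count of 0 is near what these shares give for any genes, so it does not by itself set the groups apart. Slopes ran from -0.25 to 0.30, with 26 positive and 22 negative, and the lowest adjusted p was 0.15. The unadjusted p was under 0.05 for 2 of the 48, Mylk on Krt14 and Krt14 on Mylk, both negative (-0.19 ± 0.08, unadjusted p = 0.0363, and -0.25 ± 0.11, unadjusted p = 0.0335). Without animal 3871, 1 pair passed: Krt17 fell with Mylk, with a slope of -0.41 (adjusted p = 0.0371).

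As a description over the 30 tumours, Pearson's r had a median of 0.73 over the 15 contractile pairs (0.55 to 0.95; median Spearman's rho 0.65), 0.58 over the 6 basal pairs (0.28 to 0.72; rho 0.59) and 0.05 over the 24 mixed pairs (-0.27 to 0.33; rho -0.04). These values share libraries and members and are not separate observations. When the 2 tumours most distant from the first gene's median were left out, the medians of r were 0.57, 0.49 and -0.04. Within the 14 deep libraries they were 0.77 for contractile, 0.54 for basal and 0.17 for mixed pairs. Within the 16 shallow libraries they were 0.68, 0.58 and -0.23. Of the 48 mixed slopes 28 were positive in the deep and 10 in the shallow libraries, and none passed in either class.

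**Figure D3:**
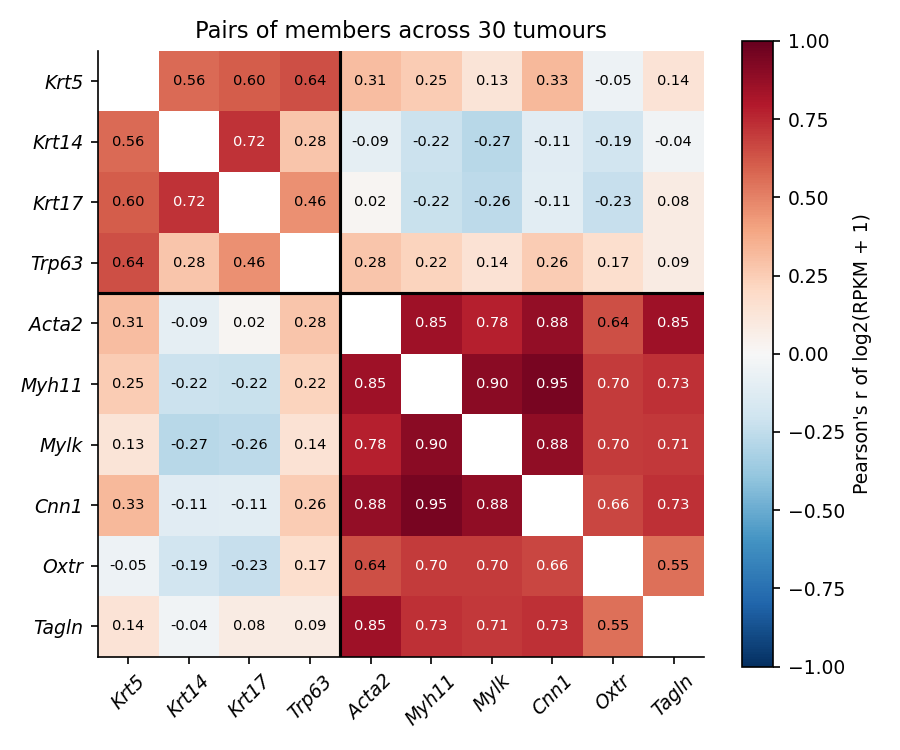
Pearson's r of log2(RPKM + 1) between members over 30 tumours, with black lines between the 4 basal and the 6 contractile genes. The contractile block runs from 0.55 to 0.95, the basal block from 0.28 to 0.72, and the mixed block from -0.27 to 0.33.

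Animal 3871 ranked first in all 6 contractile genes and had Krt5 at 132 RPKM (rank 2), Krt17 at 47.6 RPKM (rank 5) and Krt14 at 78.5 RPKM (rank 9). Animal 4030 ranked first in Krt14 and Krt17 and was rank 2 in Tagln. Animal 4036 ranked 2 in Myh11, Mylk, Cnn1 and Oxtr but 28 in Krt17 (10.2 RPKM). Animal 4488 led Krt5 and Trp63 and was rank 6 in Acta2 (58.6 RPKM). Fewer contractile pairs passed when the high tumours were left out. Of 30, 27 passed without animal 3871, 23 without animal 4036 and 11 without animals 3871, 4036 and 4511 together, with all 30 slopes positive in each case. Within the deep libraries 12 passed and within the shallow libraries 1, again with 30 positive slopes. Basal pairs numbered 2 without animal 3654, 3 without animal 4378, 3 without animal 4488, and 0 within either depth class, with 12 positive slopes in each class.

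**Figure D4:**
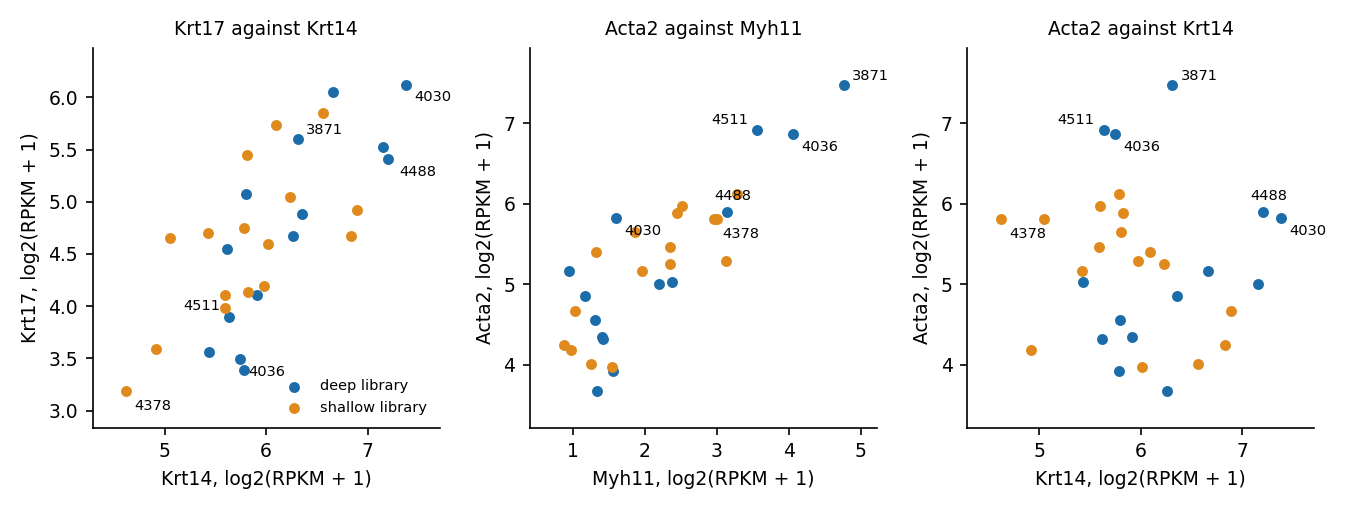
Krt17 against Krt14, Acta2 against Myh11 and Acta2 against Krt14, all as log2(RPKM + 1), 1 point per tumour, deep libraries in blue and shallow ones in orange, with some animals named. Animals 3871, 4511 and 4036 stand apart at the top of Acta2 and Myh11 and lie in the middle of the range of Krt14, where 4030 and 4488 are highest.

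Contractile genes rose with markers of other cell types, and no basal gene passed with the same markers; the difference between the groups was not itself tested. Scores were the mean standardised level of a marker list without the members, and slopes are per SD of the score. The scores were not independent of each other. With the stroma matrix score, 12 of 12 endothelial, 7 of 11 mural and 11 of 11 tested adipocyte genes rose in limma (9.55% of all tested genes). With the endothelial score all 6 contractile genes rose in limma, against 10.1% of all tested genes rising, and 0 of 4 basal genes passed (0 with an unadjusted p under 0.05). Myh11 rose by 0.68 ± 0.15 (SE, adjusted p = 0.00125), Acta2 by 0.65 ± 0.14 (adjusted p = 0.00102) and Tagln by 0.40 ± 0.08 (adjusted p = 0.000791), with Cnn1 at 0.47 ± 0.14, Oxtr at 0.37 ± 0.09 and Mylk at 0.33 ± 0.07. The 4 basal slopes lay between -0.13 and 0.10. Within the deep libraries Acta2 alone passed (0.84, adjusted p = 0.0478), and within the shallow libraries Myh11, Mylk, Oxtr and Tagln passed, with all contractile slopes positive in both classes. The 4 basal slopes were 0.09 to 0.33 in the deep and -0.35 to -0.13 in the shallow libraries, and none of them passed.

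With the stroma matrix score, built from collagens and other matrix genes, Acta2, Myh11, Mylk, Oxtr and Tagln rose, against 9.55% of tested genes rising. The slopes ran from 0.26 ± 0.07 for Mylk to 0.55 ± 0.15 for Myh11 (SE, adjusted p = 0.0111 and 0.0119, limma), and that of Cnn1 was 0.35 ± 0.14 (adjusted p = 0.0737). The count fell to 2 without animal 4036, whose stroma score was the highest at 3.13 SD. It was 0 within the deep and 1 (Tagln) within the shallow libraries. With the mural cell score, from pericyte and vessel wall genes, all contractile genes but Oxtr rose, against 6.54% of tested genes rising. Tagln led in adjusted p (0.45 ± 0.09, adjusted p = 0.0014), and Oxtr had 0.31 ± 0.11 (adjusted p = 0.0745). The mural genes were only loosely related to each other (mean pairwise r of 0.30), the count was 1 without animal 4036, and it was 0 within each depth class. No basal gene passed with either score in limma, and none had an unadjusted p under 0.05. How far vessel, fibroblast or epithelial cells account for the contractile RNA was not tested.

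The 3 tumours with most contractile RNA differed in these markers. Animal 4036 ranked first of 30 in the stroma and adipocyte scores, 2 in the mural and endothelial scores and last in proliferation. Animal 3871 ranked 14 in stroma, 18 in mural, 13 in endothelial and 28 in adipocyte score, and animal 4511 ranked 19, 17, 19 and 13. Animal 3871, highest in all 6 contractile genes, had single stroma matrix genes on both sides of their medians. Sparc had 399 RPKM (median 246 RPKM) and Thbs2 6.46 RPKM (median 15.2 RPKM). Outside that list, the matrix proteoglycan Fmod (16.9 RPKM, median 2.08 RPKM) and Timp3 (43.0 RPKM, median 14.9 RPKM) were highest there. Where its contractile RNA came from was not tested. Animal 3871 also had the highest levels of Myl9 (65.3 RPKM, median 15.6 RPKM), the smooth muscle myosin light chain, of Actg2 (11.6 RPKM, median 2.60 RPKM), the enteric smooth muscle actin, and of the smooth muscle protein Smtn (60.4 RPKM, median 41.7 RPKM). Most other genes of the contractile apparatus list also lay above their median there. Among these were Tpm2 (38.5 RPKM, median 21.7 RPKM), Cald1 (68.4 RPKM, median 54.5 RPKM) and Actn1 (62.1 RPKM, median 53.3 RPKM). Below it were the muscle filament protein Des (2.15 RPKM, median 6.55 RPKM) and Hspb6 (5.22 RPKM, median 5.98 RPKM). So were Ppp1r12b (2.59 RPKM, median 3.08 RPKM), Flna (121 RPKM, median 124 RPKM) and Vcl (28.5 RPKM, median 30.4 RPKM). The transcription factor gene Irx4 was highest there too (4.36 RPKM, median 0.669 RPKM). Its keratinised epithelium score had rank 3, at 1.25 SD.

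The proliferation score, from cell cycle genes, had slopes of opposite sign in the 2 groups of members. All 4 basal slopes were positive and all 6 contractile slopes negative. With this score 14 of 18 stroma matrix and 5 of 12 endothelial genes also fell in limma, so it is not independent of those scores. In limma Krt5 (0.35 ± 0.12, SE, adjusted p = 0.0469) and Krt17 (0.41 ± 0.13, adjusted p = 0.0309) rose, against 9.07% of all tested genes rising, and Oxtr fell (-0.29 ± 0.09, adjusted p = 0.0373), against 6.97% falling. Krt14 (0.27 ± 0.11, adjusted p = 0.0853) and Mylk (-0.22 ± 0.08, adjusted p = 0.0553) missed the threshold. These calls depended on single tumours. The count of 3 was 0 without animal 4036, 4164 or 4438 and 1 without animal 4020, 4142, 4378 or 4459. It was 0 within the deep and 1 (Krt5, 0.42, adjusted p = 0.0229) within the shallow libraries. The signs of all 10 slopes were the same in both depth classes.

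With the adipocyte score Myh11 alone rose (0.60 ± 0.16, SE, adjusted p = 0.0167, limma), against 5.98% of tested genes rising, and it did not pass without animal 4036. Without animal 3871 Myh11, Mylk and Cnn1 passed, and without animal 4139 Myh11 and Mylk. No member passed in limma with the keratinised epithelium score (0.691% of tested genes in either direction), the skeletal muscle score (1.28%) or the milk score (1.04%). With an unadjusted p under 0.05, the counts were 2 for keratinised epithelium (Krt14 and Krt17, both positive), 0 for skeletal muscle and 1 for milk (Trp63, -0.25 ± 0.11). The slopes of the 4 basal genes on the keratinised score, 0.18 to 0.34, lay above the median of all genes of 0.01. Animal 4488, highest in Krt5 and Trp63, ranked 2 in the keratinised score (2.93 SD). Animal 4030, highest in Krt14 and Krt17, ranked 11 (0.03 SD). How far keratinised epithelium accounts for the basal RNA was not tested.

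**Figure D5:**
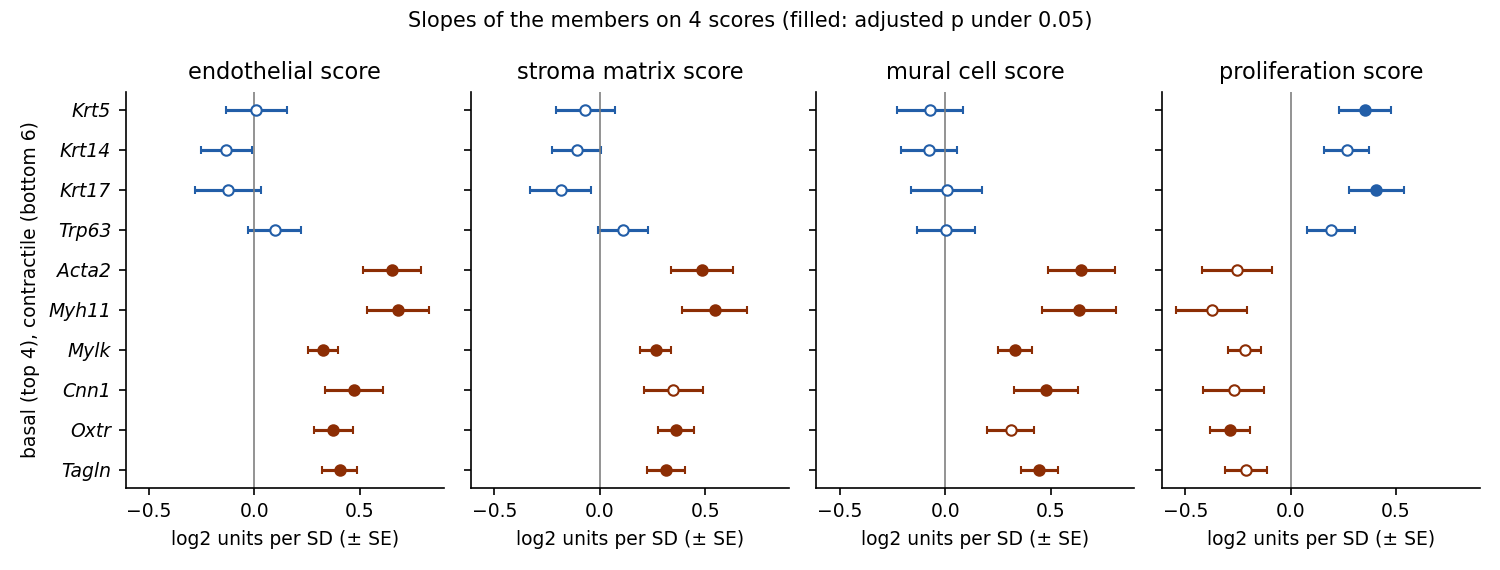
Slopes of the 10 members on the endothelial, stroma matrix, mural cell and proliferation scores, in log2 units per SD of the score, with standard errors (n = 30 tumours); filled points passed an adjusted p of 0.05 in limma. Contractile genes lie right of 0 in the first 3 panels and left of it for proliferation, while basal genes lie near 0 in the first 3 and right of 0 in the last.

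Technical variables were set against the members as well. No member passed in limma between the deep and the shallow libraries (1.23% of tested genes in either direction) or with insert size (0.0367%). With an unadjusted p under 0.05 there was 1 member for depth class and 0 for insert size. The 1 was Oxtr, at 4.46 ± 2.42 RPKM in deep and 2.91 ± 1.35 RPKM in shallow libraries (SD, n = 14 and 16). Its log2 difference was 0.43 ± 0.20 (SE, adjusted p = 0.505, limma). Depth class and insert size were not independent, since inserts were mostly shorter in deep than in shallow libraries. The shortest mean inserts were those of animals 3871 and 3654, both deep libraries. Animal 3871 was highest in all contractile genes, and animal 3654 was lowest in Krt5 and Trp63.

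Other genes of the same pathways were read from the Krt14 fit and the Acta2 fit. With Krt14, 0.287% of all tested genes passed in either direction. Of 6 tested stress and basal keratins 1 rose with Krt14, Krt16 (0.70 ± 0.15, adjusted p = 0.0375, limma), a keratin of wounded and hyperproliferative skin that shares 11.4% of the Krt14 windows. The other 5 had positive slopes between 0.18 (Krt80) and 0.52 (Krt6a), and the list's median of 0.46 stood beside -0.0044 for all genes. None of 14 adhesion and basement membrane genes, 12 basal regulators, 17 contractile apparatus genes, 8 smooth muscle transcription genes or 11 oxytocin signalling genes passed with Krt14. Nor did any stroma, mural, endothelial, adipocyte, muscle, milk, proliferation or luminal gene. The hemidesmosome integrin Itga6, abundant at 96.2 RPKM, had a slope of -0.04 ± 0.09, and the basal cadherin Cdh3 one of 0.34 ± 0.16 (adjusted p = 0.287).

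With Acta2, 6.56% of all tested genes passed in either direction. In limma, 2 of 17 contractile apparatus genes rose, Myl9 (0.67 ± 0.04, adjusted p = 6.36e-13) and Actg2 (0.37 ± 0.08, adjusted p = 0.00591), while the abundant Myl6, a myosin light chain of all cells, had a slope of 0.03 ± 0.04. Of 14 adhesion and basement membrane genes 3 rose: the laminin chain Lama3 (0.24 ± 0.06, adjusted p = 0.0191), the hemidesmosomal collagen Col17a1 (0.25 ± 0.07, adjusted p = 0.0312) and the laminin receptor Bcam (0.25 ± 0.08, adjusted p = 0.0475). Of 12 basal regulators 3 rose. Pdpn, a glycoprotein of basal cells, fibroblasts and lymphatic vessels, had a slope of 0.30 ± 0.07 (adjusted p = 0.00979). The surface peptidase Mme had 0.41 ± 0.12 (adjusted p = 0.0338) and Irx4 0.28 ± 0.09 (adjusted p = 0.0487). Beside these, 9 of 12 endothelial, 6 of 18 stroma matrix and 2 of 11 mural genes rose with Acta2. Mme itself also rose with the endothelial score (0.56 ± 0.10, adjusted p = 0.000205) and the stroma matrix score (0.52 ± 0.10, adjusted p = 0.000513) in limma. Of 8 smooth muscle transcription genes 1 rose (Hic1, 0.24 ± 0.06, adjusted p = 0.0197), of 11 oxytocin signalling genes none passed, and of 17 proliferation genes 1 fell (Bub1). No keratinised, adipocyte, skeletal muscle, milk, luminal or other keratin gene passed. The coactivator Myocd was near 0, with a mean of 0.0388 RPKM and a highest value of 0.217 RPKM, and was not tested. The median slope of the contractile apparatus list was 0.13, beside -0.01 for all genes.

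The genes most like each member were found by Pearson's r over the 30 tumours, as a description, with the 10 members themselves left out of the search. For Krt5 they were Krt74 (r = 0.79, rho = 0.83), a keratin of the hair follicle, the secreted antagonist Sostdc1 (0.79, rho = 0.83) and the transcription factor Snai2 (0.72, rho = 0.66), which is made by basal mammary cells. For Trp63 they were the protocadherin Fat2 (0.82, rho = 0.80), Trim29 (0.77, rho = 0.79) and Maea (0.76, rho = 0.47). Maea, at 41.0 to 66.1 RPKM, had a rank correlation well below its r. For Krt14 they were Ajuba (0.76, rho = 0.71), Tmem40 (0.76, rho = 0.75), Prss22 (0.72, rho = 0.67), Plek2 (0.71, rho = 0.74) and Psmg1 (0.70, rho = 0.68), and for Krt17 the peptide hormone Adm (0.78, rho = 0.75), the matricellular protein Ccn2 (0.74, rho = 0.76) and Galk1 (0.72, rho = 0.67).

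Among the genes outside the member list, Myl9 was among the nearest of 5 contractile genes, with r of 0.95 for Acta2 (rho = 0.94), 0.91 for Cnn1, 0.87 for Myh11, 0.85 for Mylk and 0.81 for Tagln. The matrix proteoglycan Fmod was also named for 5 (r = 0.90 for Tagln, 0.79 for Acta2, 0.79 for Mylk, 0.75 for Cnn1 and 0.70 for Oxtr), and the metalloproteinase inhibitor Timp3 for 3. Without animal 3871, in which Fmod was highest at 16.9 RPKM against a median of 2.08 RPKM, its r with Cnn1 was 0.60 and with Mylk 0.67. The remaining nearest genes, each named for 1 member, were Emb (0.82) and Ninj1 (0.80) for Acta2, Syne1 (0.81) and Egflam (0.80) for Myh11, Dzip1 (0.79) for Mylk, Id4 (0.81) for Cnn1 and Niban1 (0.72) for Oxtr.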

How the data were processed

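Poly-A selected RNA of 30 tumours was fragmented and sequenced (labels' protocols). The deposited table holds RPKM values of 27902 RefSeq transcripts, computed by the authors. No source names the unit, which was inferred from the steps between low values. CASAVA 1.7.0 is given per the submitters' processing notes. Of the aligner and build, the sources used here say nothing. Names came from RefSeq (26490 transcripts) and GENCODE vM21 (154), and 700 small RNA transcripts were left out. Between 70.9 and 78.6% of low values were whole reads within 0.12, too few for a count test. Libraries were divided into deep and shallow at the largest gap in depth, a class that the labels do not name.

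Slopes are on the log2(RPKM + 1) scale, on which changes of low genes come out too small, and genes averaging under 1 RPKM were not tested. Fits used limma 3.58.1 in R 4.3.3 (empirical Bayes with trend), and Python 3.11.15 was also used. The fit was also run on simulated data with independent noise for each gene. Genes of these tumours were correlated with each other, so that run does not show how the fits behave here. Alternatives were a pseudocount of 0.1, other filters, quantile normalization, depth class, no insert size covariate and leaving out tumours. p-values measure the spread between animals, technical variation included.

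The members and lists were chosen with earlier results of these data known. Genes named were the members, the 3 genes outside the member list with the highest r with each (5 for Krt14 and Acta2), and a selection of the most abundant and the highest and lowest slopes per list. Genes named outside this rule were chosen after their values were seen. Among them were Lama3, Col17a1, Pdpn, Irx4, Actg2, Hic1, Smtn, Krt6a, Myocd, Krt8, Epcam, Foxa1, Esr1 and Prlr. The others were Des, Hspb6, Ppp1r12b, Vcl, Tpm2, Cald1, Actn1, Flna, Sparc and Thbs2.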

Additional observations from a re-analysis of the deposited data

How the results depend on the processing

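No call of a member reversed under any alternative. With depth class as a covariate 54 of the 55 calls of single members held, with a pseudocount of 0.1 also 54, with no filter 50, with no insert size covariate 50 and after quantile normalization 49. Fewer held with tumours left out. The number was 35 without animal 4036, 27 without the 2 tumours farthest from the median and 23 without animals 3871, 4036 and 4511. Within the deep libraries 13 of the 55 held, and within the shallow libraries 7. The counts that moved by over 1.5 times were as follows. With a mean of at least 5 RPKM only 6 members were tested, and 2 passed for stroma, 2 for mural, 2 for endothelial and 0 for adipocyte markers, with 2 of 2 contractile pairs. With no filter 1 member passed for proliferation. After quantile normalization 2 passed for mural and 1 for proliferation, and with no insert size covariate 2 for mural. Within the deep libraries the counts were 0 for stroma, mural, adipocyte and proliferation, 1 for endothelial, 0 basal pairs and 12 contractile pairs. Within the shallow libraries they were 1 for stroma, 0 for mural, 0 for adipocyte, 1 for proliferation, 0 basal pairs and 1 contractile pair. Fewer samples enter these fits. Without the 2 tumours farthest from the median they were 0 for stroma, 1 for mural, 0 for adipocyte, 0 for proliferation, 1 basal and 19 contractile pairs. Without animals 3871, 4036 and 4511, chosen after seeing the data, they were 2 for stroma, 1 for mural, 1 for proliferation, 3 basal and 11 contractile pairs. The mural score without Des, also chosen after seeing the data, kept 4 of its 5 calls. The causes were not tested.

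Leaving out each tumour in turn gave 0 to 3 for adipocyte, 5 to 6 for endothelial, 1 to 6 for mural, 2 to 6 for stroma and 0 to 4 for proliferation, and 2 to 7 basal, 23 to 30 contractile and 0 to 1 mixed pairs. The other scores, insert size and depth class stayed at 0. No paired analysis was possible because the labels put all tumours in 1 group. Depth limits Cnn1 most, at about 85.1 reads in its lowest tumour.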
